A study of Mus musculus with 5 samples.

Results

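The cytosolic ribosomal protein genes encode the proteins that, with ribosomal RNA, build the ribosomes of the cytoplasm. They were taken as every gene of the deposited count table whose symbol follows the Rpl, Rps or Rplp naming pattern, with numbered pseudogenes (symbols ending in -ps and a number) left out. The pattern found 82 genes among 78334 gene identifiers, 51 of the large subunit and 31 of the small subunit. Of these, 79 had enough counts to be tested. Rpl10l and Rpl32l had no count in any library, and Rpl39l had 2 and 2 counts in resveratrol, 3 and 1 in obesity and 11 in control. The pattern does not take genes of the ribosome with other names, such as Rpsa and Rack1, nor genes such as Rpl7l1, whose names are built differently. A set of 8 such genes was followed as a separate list.

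A ribosome has a small subunit, which reads the messenger RNA, and a large subunit, which joins amino acids and holds the exit tunnel of the new protein. Each holds its proteins mostly in 1 copy, and their messenger RNAs commonly start with a run of pyrimidines (C and T bases), the terminal oligopyrimidine or TOP motif, through which mTOR signalling controls their translation. Ribosomal protein transcripts are abundant in growing and secretory cells, and in fat tissue they come from adipocytes as well as from immune, vascular and stromal cells.

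Messenger RNA was measured in visceral adipose tissue of male C57BL/6 mice, an inbred laboratory strain, that were 8 weeks old when the diets began. The resveratrol group comprised 2 libraries, of mice on a high-fat diet, with 60% of its energy from fat, and, after 8 weeks, on resveratrol, a polyphenol of plants, at 2.25 mg/kg. The obesity group had 2 libraries from mice on the same diet that received vehicle, and the control group was a single library, from standard chow and vehicle. Treatment was given each day by gastric tube for 28 days from 16 weeks of age. Whether the 2 libraries of a group are different mice is not stated in the labels, so the spread behind each p-value may not be that between mice. Levels are given as CPM, a gene's share of the counts of its library, scaled by TMM, a method that sets the libraries to a common typical gene. Log2 differences come from one fit to all 5 libraries.

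The libraries did not hold the same mixture of tissue transcripts. The 10 adipocyte genes, among them Adipoq and Plin1, summed to 5935 and 32685 CPM in resveratrol libraries 1 and 2, 31744 and 34535 CPM in obesity, against 461 CPM in control. The 10 epididymis genes summed to 3427 and 0.350 CPM in resveratrol, 18.5 and 0.286 CPM in obesity, against 60840 CPM in control, where all 10 had counts. The 8 smooth muscle genes summed to 46104 and 1031 CPM in resveratrol, 1311 and 1032 CPM in obesity, against 2320 CPM in control. The control library and resveratrol library 1 thus stood apart from the other 3 libraries, and the control library held little of the adipocyte transcripts its label names. The 7 germ cell genes summed to 177 CPM in control and to between 0 and 2.36 CPM in the other 4 libraries. The part of these transcripts in the results on ribosomal protein genes was not tested, and with 1 control library the diet and that library cannot be told apart. In bulk tissue, fewer cells of a type and less RNA per cell cannot be told apart either.

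Ribosomal protein genes have many retrocopies in the mouse genome, and counts of a shared sequence can stand under the name of a copy. Rpl38 encodes a small protein of the large subunit, and its coding sequence of 210 bases is identical in the pseudogene Rpl38-ps2. The first 60 coding bases of both are shown, from GENCODE M21 transcripts (mouse build GRCm38), to show a stretch in which no base tells them apart.
Rpl38 (chromosome 11): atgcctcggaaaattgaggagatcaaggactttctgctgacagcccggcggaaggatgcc
Rpl38-ps2 (chromosome 6): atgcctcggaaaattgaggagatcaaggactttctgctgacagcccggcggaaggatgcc
Rpl38 itself was at 1.18 and 0.856 CPM in resveratrol, 1.04 and 1.19 CPM in obesity, against 4.18 CPM in control. Rpl38-ps2 was at 144 and 99.7 CPM in resveratrol, 147 and 136 CPM in obesity, against 260 CPM in control. Most counts of this sequence thus lay on the pseudogene in all 5 libraries. Rpl31 is the same case, with 375 of 375 coding bases shared with Rpl31-ps8, and Rpl23a shares 467 of 468 with Rpl23a-ps3. Of the 79 genes with an annotated protein-coding transcript, 70 shared at least 1 stretch of 100 bases with the transcript of another gene, and 30 shared more than 50% of such stretches. Levels of single genes are therefore uncertain wherever the counting could move reads to a copy.

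The genes covered a wide range of levels. In the obesity libraries 20 and 20 genes stood at 100 CPM or more and 4 and 4 below 1 CPM, against 25 and 3 in the control library. The 10 most abundant genes of each library held 58.5% and 60.4% of the summed level in resveratrol, 59.1% and 59.9% in obesity, and 55.8% in control. Divided by the length of the messenger RNA, the highest levels in obesity belonged to Rpl41, which encodes a very short peptide at the subunit interface, at 901 and 835 CPM per kilobase, and Rpl8, a protein of the large subunit core, at 690 and 675 CPM per kilobase. They were followed by Rplp1, a protein of the stalk that binds elongation factors, at 727 and 616 CPM per kilobase. The values of Rpl8 and Rplp1 overlapped, and Rpl41 lay above both. Across 78 genes, the level per kilobase in obesity and the share of copied sequence had a Spearman correlation of -0.36. The 8 genes that shared no 100-base stretch had a median of 206 CPM per kilobase, the 40 that shared up to 50% had 25.3 and the 30 that shared more had 15.7. This correlation is across genes, which are not independent of each other.

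Summed over all 82 genes, the level was 6577 and 5993 CPM in resveratrol, 7188 and 6562 CPM in obesity, against 11724 CPM in control. The control library had the highest sum, and the resveratrol and obesity values overlapped. As a share of all counts, the genes took 0.669% and 0.582% in resveratrol, 0.705% and 0.635% in obesity, and 1.244% in control, with a 95% exact binomial interval of 1.240% to 1.248% in control that covers counting error alone. Large subunit genes summed to 3851 and 3400 CPM in resveratrol, 4030 and 3744 CPM in obesity, against 7174 CPM in control. Small subunit genes summed to 2726 and 2593 CPM in resveratrol, 3158 and 2818 CPM in obesity, against 4551 CPM in control. Both subunits were thus highest in the control library.

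The large subunit took a greater part of the total in control. The ratio of large to small subunit level was 1.41 and 1.31 in resveratrol, 1.28 and 1.33 in obesity, and 1.58 in control. Its 95% exact counting interval was 1.57 to 1.59 in control, 1.40 to 1.43 in resveratrol library 1, and no higher than 1.34 in the other 3 libraries. The control ratio lay above the other 4, and the resveratrol and obesity ratios overlapped. The single gene Rpl4, whose protein reaches into the exit tunnel, made up 10.4% and 8.78% of the summed level in resveratrol, 8.86% and 9.36% in obesity and 11.4% in control. Without Rpl4, a step chosen after seeing the data, the ratio was 1.16 and 1.11 in resveratrol, 1.07 and 1.11 in obesity, and 1.28 in control. With pseudogene counts added to each subunit it was 1.70 and 1.43 in resveratrol, 1.45 and 1.44 in obesity, and 1.79 in control, so the control library kept the highest ratio in both cases.

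**Figure D1:**
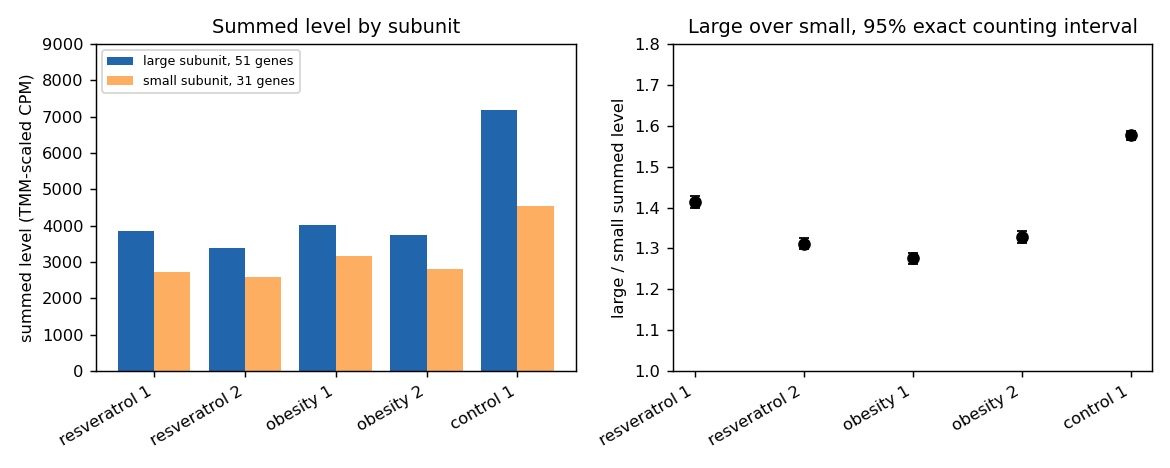
Summed level of 51 large and 31 small subunit genes in each library (left, TMM-scaled CPM) and the ratio of the large to the small subunit sum (right, points with 95% exact counting intervals, axis from 1.0). The control library stands highest in both panels, at a ratio of 1.58 against 1.28 to 1.41 in the other 4 libraries.

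The comparison of obesity with control asked how the high-fat diet changes visceral fat. Of the 79 tested genes, 73 had a lower level in obesity and 6 a higher one, where 52.7% of all 24779 tested genes were lower and 46.9% higher. The median log2 difference was -0.82, a 1.77-fold lower level, against -0.10 over all genes. Both subunits had similar medians, -0.88 over 48 large subunit genes and -0.81 over 31 small subunit genes. In 70 genes both obesity libraries lay below the control library, which is 88.6% of the genes where 48.6% of all tested genes did so, and in 3 genes both lay above it, where 40.8% of all genes did so. When libraries were scaled by total counts alone, the median of all genes moved to -0.23 and that of the ribosomal protein genes to -0.95, so the distance between them was close to that with TMM.

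In edgeR's quasi-likelihood test with Benjamini-Hochberg adjustment at 0.05, 0 ribosomal protein genes and 0% of all genes were called. The smallest adjusted p of a ribosomal protein gene in that test was 0.175. At an unadjusted p under 0.05, the same test gave 23 lower and 0 higher genes, 29.1% of those tested, against 11.7% lower over all genes. Without obesity library 1 that count was 1, against 3.7% of all genes, and without obesity library 2 it was also 1, against 3.34%. The adjusted calls depended on which libraries entered the fit. Without resveratrol library 1, edgeR called 34 of the 79 genes lower, 43.0%, against 17.6% of all genes, and without resveratrol library 2 it called 32 lower, against 17.8%. With obesity and control alone it called 35 lower, against 19% of all genes. DESeq2 called 17 lower, against 7.28% of all genes, and limma-voom called 0 of them and 0% of all genes. DESeq2 called 0 ribosomal protein genes higher, against 2628 of all 24779 tested genes. The 3 reduced fits and DESeq2 used the same obesity and control libraries, so calls that they share are not independent evidence. All of these fits share the single control library, and its variation is assumed to equal that of the other groups.

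Among the most abundant genes, Rpl4 was at 683 and 526 CPM in resveratrol, 637 and 614 CPM in obesity, against 1339 CPM in control. Its log2 difference between obesity and control was -1.10 with a standard error (SE) of 0.51. Rps3, a protein at the mRNA entry that also acts in DNA repair, was at 495 and 483 CPM in obesity, against 663 CPM in control, and differed on the log2 scale by -0.44 (SE 0.43). Rpl8 was at 587 and 574 CPM in obesity, against 683 CPM in control, with a log2 difference of -0.23 (SE 0.46). All 3 were below the control level in both obesity libraries, but for Rpl8 and Rps3 the difference was under 2 SE.

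The stalk of the large subunit is made of Rplp0, which anchors it to ribosomal RNA, and of Rplp1 and Rplp2, which recruit the elongation factors. Rplp0 was at 132 and 148 CPM in resveratrol, 194 and 170 CPM in obesity, against 437 CPM in control. The obesity difference from control was -1.26 on the log2 scale (SE 0.34). Rplp1 was at 348 and 299 CPM in resveratrol, 363 and 308 CPM in obesity, against 593 CPM in control, with an obesity difference from control of -0.82 (SE 0.42). Rplp2 was at 48.3 and 52.4 CPM in resveratrol, 70.9 and 64.8 CPM in obesity, against 78.9 CPM in control, a difference of -0.22 (SE 0.27). The 3 partners of one complex thus lay below control by unequal amounts, and whether they differ from each other was not tested.

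**Figure D2:**
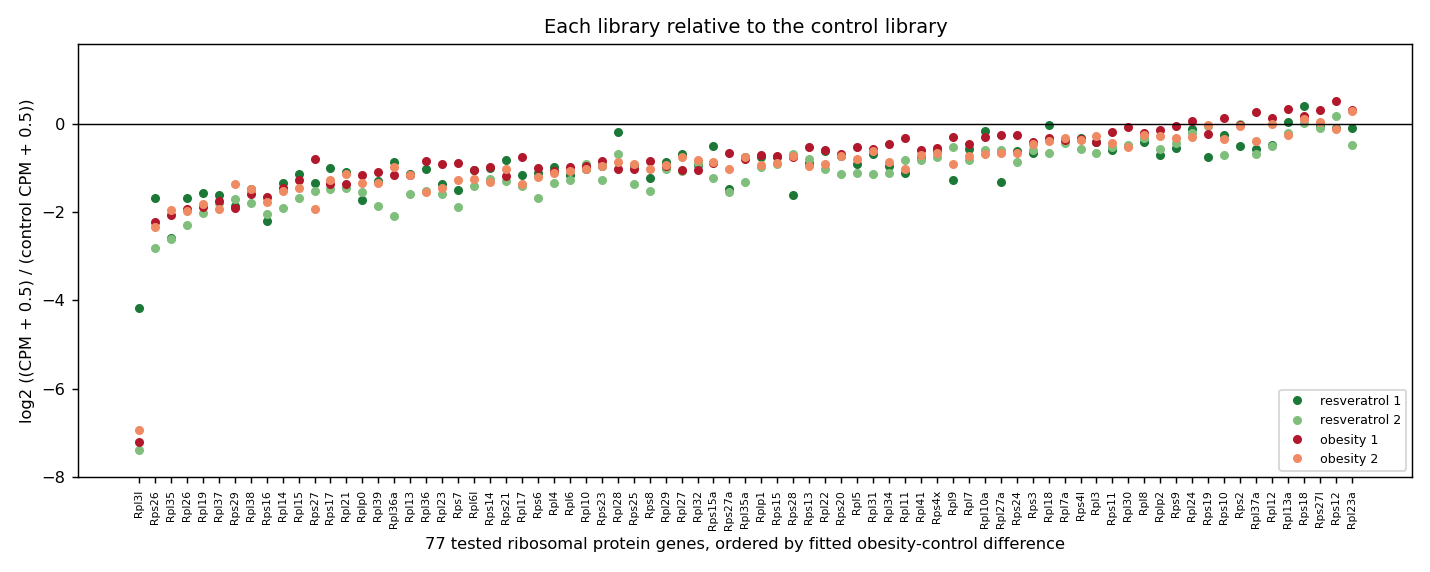
Each of 77 tested ribosomal protein genes (x axis, ordered by the fitted obesity-control difference) in 4 libraries, as the log2 ratio of CPM + 0.5 to the control library (y axis). Most points of the resveratrol and obesity libraries lie between 0 and -2, with Rpl3l far below and 6 genes with a fitted obesity level above control.

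The largest differences below control were in Rpl3l, described with its paralogue, and in Rps26, Rpl35, Rpl26 and Rpl19. Rps26, which lines the path of the mRNA as it leaves the small subunit, was at 85.2 and 38.8 CPM in resveratrol, 58.3 and 53.9 CPM in obesity, against 275 CPM in control. Its obesity difference from control was -2.29 (SE 0.53). Rpl35, a protein near the exit of the tunnel, was at 2.91 and 2.84 CPM in resveratrol, 4.38 and 4.71 CPM in obesity, against 19.8 CPM in control, a difference of -2.12 (SE 0.45). Its counts were low beside those of Rps26, and its obesity libraries still lay under the 95% exact counting interval of the control value, 18.3 to 21.5 CPM. Rpl26, which also lies at the tunnel exit, was at 40.2 and 26.5 CPM in resveratrol, 33.9 and 32.7 CPM in obesity, against 131 CPM in control, and differed by -1.98 (SE 0.35). Rpl26 had the smallest p of the ribosomal protein genes in this comparison, where edgeR's quasi-likelihood test gave an adjusted p of 0.175. Rpl19, a protein that reaches from the large to the small subunit, was at 6.91 and 4.90 CPM in resveratrol, 5.43 and 5.76 CPM in obesity, against 21.5 CPM in control, a difference of -1.94 (SE 0.45). The obesity libraries of each of these 4 genes agreed closely with each other and lay far from the control library. For Rpl19, however, 98.7% and 98.6% of the counts of the gene and its 10 pseudogenes lay on the pseudogenes in obesity and 97.4% in control, and the log2 ratio of obesity to control was -0.995 when these were added. In Rps26, Rpl35 and Rpl26 the pseudogenes named after each gene held no more than 4.09% in any library. These genes also shared 24.1%, 30.7% and 36.8% of their stretches with transcripts of other genes. The partner with the most shared stretches was Gm2000 for Rpl35 and Gm15772 for Rpl26. Counts of copies with such other names were not added, so their part was not tested.

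A set of 6 genes had a higher fitted level in obesity than in control, and each of these differences was smaller than its SE. Rpl23a, a tunnel exit protein that contacts factors acting on new proteins, was at 1.82 and 1.28 CPM in resveratrol, 2.56 and 2.52 CPM in obesity, against 1.99 CPM in control, a difference of 0.35 (SE 0.71). Rps12, a small subunit protein, was at 7.72 and 9.37 CPM in resveratrol, 11.9 and 7.52 CPM in obesity, against 8.26 CPM in control, a difference of 0.23 (SE 0.52). Rps18, a protein of the small subunit head, was at 5.32 and 4.01 CPM in resveratrol, 4.49 and 4.28 CPM in obesity, against 3.94 CPM in control, a difference of 0.15 (SE 0.57). Rpl12 and Rpl13a differed by 0.06 each, and both lay below control when libraries were scaled by total counts. Rpl23a, Rps12 and Rps18 are genes whose counts lie mostly on pseudogenes, so that their own counts describe a small part of their sequence. The sixth, Rps27l, has no pseudogene named after it in the table and is described with its paralogue.

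**Figure D3:**
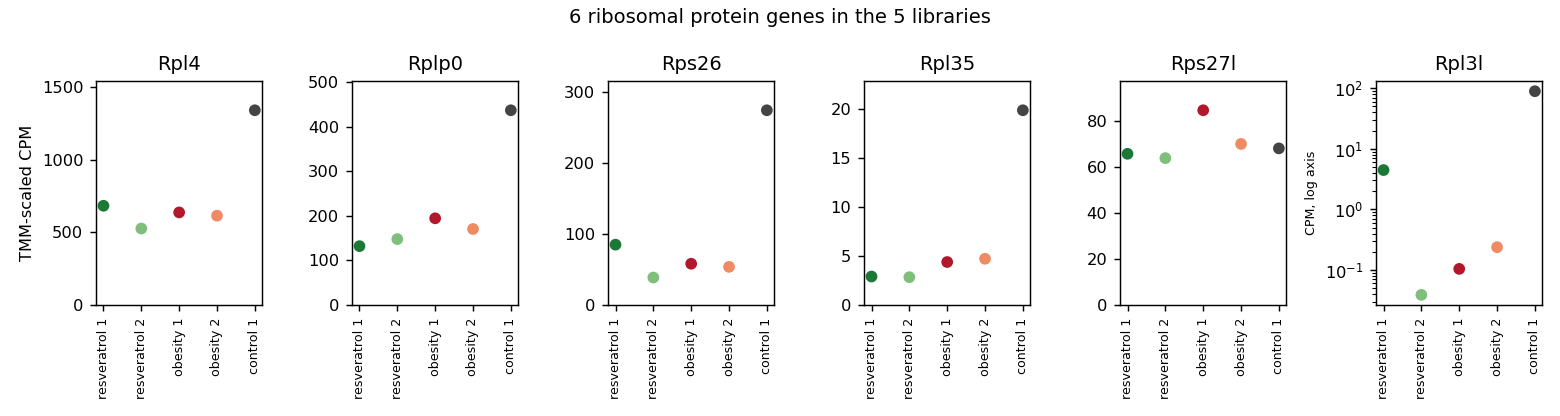
TMM-scaled CPM of 6 ribosomal protein genes in each of the 5 libraries, 1 point per library, with linear axes from 0 except for Rpl3l, whose axis is logarithmic. Rpl4, Rplp0, Rps26 and Rpl35 are highest in the control library, Rps27l is at 63.9 to 84.7 CPM in all 5, and Rpl3l spans 0.0389 to 88.9 CPM.

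Some genes are known for roles besides building the ribosome. Rpl5 and Rpl11 bind the 5S ribosomal RNA, and when free of the ribosome they hold back Mdm2, the inhibitor of p53. Rpl5 was at 8.04 and 6.85 CPM in resveratrol, 10.6 and 8.66 CPM in obesity, against 15.6 CPM in control, and Rpl11 was at 6.45 and 8.05 CPM in resveratrol, 11.6 and 6.86 CPM in obesity, against 14.5 CPM in control. Their obesity differences from control were -0.69 (SE 0.42) and -0.66 (SE 0.52), alike in size. Rps6, which is phosphorylated by the S6 kinases downstream of mTOR, was at 40.3 and 27.1 CPM in resveratrol, 43.8 and 37.7 CPM in obesity, against 88.0 CPM in control, a difference of -1.11 (SE 0.36). Rpl22, which T cells need to develop in mice, was at 169 and 127 CPM in resveratrol, 172 and 137 CPM in obesity, against 261 CPM in control, a difference of -0.76 (SE 0.38). Rps27a, which encodes ubiquitin joined to a ribosomal protein, was at 6.63 and 6.34 CPM in resveratrol, 12.1 and 9.38 CPM in obesity, against 19.5 CPM in control, a difference of -0.86 (SE 0.41). Every one of these 5 genes had its highest level in the control library. Rpl5, Rps6 and Rps27a have most of their counts on pseudogenes, and with these added their log2 ratios of obesity to control were -0.54, -0.73 and -0.40.

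Of the genes, 4 lie on the X chromosome. Rps4x, a small subunit protein with a Y-linked partner in humans, was at 91.3 and 80.8 CPM in resveratrol, 94.1 and 87.2 CPM in obesity, against 138 CPM in control, an obesity difference from control of -0.60 (SE 0.28). Rpl10, which sits at the site where the subunits join and where tRNA enters, was at 15.9 and 17.2 CPM in resveratrol, 16.7 and 16.0 CPM in obesity, against 33.0 CPM in control, a difference of -1.01 (SE 0.30). Rpl39, a tunnel protein, was at 12.7 and 8.44 CPM in resveratrol, 14.7 and 12.3 CPM in obesity, against 32.0 CPM in control, a difference of -1.24 (SE 0.41). Rpl36a, of the large subunit, was at 2.95 and 0.972 CPM in resveratrol, 2.30 and 2.67 CPM in obesity, against 5.79 CPM in control, a difference of -1.22 (SE 0.87). All 4 lay below control in each of the other 4 libraries, as most autosomal members did. Most counts of Rpl10 and Rpl36a lie on pseudogenes, and with these added their log2 ratios of obesity to control were -1.46 and -1.08.

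The symbols of 7 members end in the letter l, which marks a second gene similar to a ribosomal protein gene. Rpl3l replaces Rpl3 in heart and skeletal muscle, and Rps27l is a paralogue of Rps27 known as a p53 target. The first 60 coding bases of these pairs are shown (GENCODE M21 transcripts, GRCm38), with the bases that differ between the partners in capitals, since these differences let the reads of each be told apart.
Rps27l (chromosome 9): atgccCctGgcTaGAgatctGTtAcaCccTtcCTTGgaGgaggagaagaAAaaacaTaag
Rps27 (chromosome 3): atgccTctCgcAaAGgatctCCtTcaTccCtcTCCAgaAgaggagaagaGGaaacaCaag
Rpl3l (chromosome 17): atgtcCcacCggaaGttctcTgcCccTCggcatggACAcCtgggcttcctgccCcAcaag
Rpl3 (chromosome 15): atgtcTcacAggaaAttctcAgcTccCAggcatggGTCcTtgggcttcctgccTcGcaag
Rps27l and Rps27 differ at 18 of these bases and are 76.2% identical over the coding sequence, while Rpl3l and Rpl3 differ at 13 and are 73.9% identical.

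Rpl3l had the widest range of all members. Its counts were 98 and 1 in resveratrol, 2 and 5 in obesity and 2550 in control, equal to 4.45 and 0.0389 CPM, 0.104 and 0.238 CPM, and 88.9 CPM. The summed obesity level was 0.00196 times that of control, with a 95% exact counting interval of 0.000787 to 0.00404. The fitted log2 difference was -8.96 (SE 2.46). Rpl3 was at 23.4 and 19.5 CPM in resveratrol, 23.4 and 25.8 CPM in obesity, against 31.5 CPM in control, an obesity difference from control of -0.36 (SE 0.31). Per kilobase of messenger RNA, the level of Rpl3l was 3.24 and 0.0283 CPM in resveratrol, 0.0759 and 0.173 CPM in obesity, and 64.7 CPM in control, beside 17.3 and 14.5 CPM in resveratrol, 17.3 and 19.1 CPM in obesity, and 23.3 CPM in control for Rpl3. Rpl3l thus stood above the own counts of Rpl3 in the control library and below them in the other 4, while 2 pseudogenes of Rpl3 held a further 885 CPM in control. The 6 skeletal muscle genes, among them Acta1 and Ckm, summed to 1085 and 38.2 CPM in resveratrol, 86.2 and 51.5 CPM in obesity, against 11.1 CPM in control. The control library had the most Rpl3l and the lowest sum of these markers. Among the other 4 libraries, resveratrol library 1 had the most Rpl3l and the highest sum. The part of muscle transcripts in the Rpl3l level was not tested. In control Ckm was at 0.593 CPM and Myh4 at 0 counts. The epididymis, germ cell and Rpl3l levels were all highest in the control library, and their relation was not tested.

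Rps27l and Rps27 lay on different sides of control in obesity, and both lay below control with resveratrol. Rps27l was at 65.8 and 63.9 CPM in resveratrol, 84.7 and 70.1 CPM in obesity, against 68.1 CPM in control, an obesity difference from control of 0.18 (SE 0.29). Rps27 was at 4.00 and 3.46 CPM in resveratrol, 6.00 and 2.48 CPM in obesity, against 10.8 CPM in control, a difference of -1.36 (SE 0.71). Both obesity libraries lay above control in the paralogue and below it in Rps27. Rps27l shared no 100-base stretch with another gene, whereas Rps27 shared 98.4% of its stretches, so its own counts may be incomplete. Rpl6l is annotated as a processed pseudogene and is 98.7% identical to the coding sequence of Rpl6, so reads of the pair may be exchanged. Rpl6l was at 123 and 94.1 CPM in resveratrol, 121 and 107 CPM in obesity, against 253 CPM in control, and Rpl6 at 64.1 and 59.5 CPM in resveratrol, 73.2 and 68.6 CPM in obesity, against 144 CPM in control. Their obesity differences from control were -1.15 (SE 0.34) and -1.03 (SE 0.27). Rps4l, a transcribed processed pseudogene 79.9% identical to Rps4x, was at 50.2 and 42.4 CPM in resveratrol, 49.8 and 48.9 CPM in obesity, against 63.4 CPM in control, a difference of -0.36 (SE 0.28). Rpl10l and Rpl39l, paralogues active in the mouse testis, were at 0 counts and at 1 to 11 counts. For Rpl39l the summed obesity level was 0.260 times that of control, with a counting interval of 0.0603 to 0.876. Rpl32l, a processed pseudogene 96.0% identical to Rpl32, had 0 counts.

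The pseudogenes left out by the pattern carried more counts than the genes. The table held 300 genes named as pseudogenes of ribosomal protein genes, 289 of which belonged by name to 59 of the 82 members. GENCODE M21 lists 287 of the 300 as processed pseudogenes, 7 as transcribed processed pseudogenes and 6 as protein-coding genes. Together they summed to 8724 and 7623 CPM in resveratrol, 9240 and 8661 CPM in obesity, against 15755 CPM in control. In each library this was above the summed level of the members themselves. In 35 genes the pseudogenes held more obesity counts than the gene itself, for example 26242 against 656 counts for Rpl10, 15374 against 200 for Rps16 and 10177 against 106 for Rpl31. Of 129 pseudogenes with enough counts to be tested, 124 were lower in obesity than in control, 96.1%, where 52.7% of all tested genes were. Their median log2 difference was -0.96, against -0.10 over all genes. The pseudogenes thus stood below control in the same way as the genes, and reads of the genes placed on their copies cannot be told apart from transcripts of the copies.

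Adding each gene's pseudogenes to it changed the exceptions more than the general pattern. Of 79 such sums, 78 were lower in obesity than in control, where 52.7% of all tested genes were, with a median log2 ratio of -0.78. The sum that was not lower was that of Rps27l. In 74 sums both obesity libraries lay below control, where 48.6% of all tested genes did so. With its 3 pseudogenes, Rps18 was at 104 and 79.1 CPM in resveratrol, 78.8 and 88.1 CPM in obesity, against 166 CPM in control, a log2 ratio of obesity to control of -0.99 where its own counts gave a difference of 0.15. With its 14 pseudogenes, Rpl23a was at 239 and 195 CPM in resveratrol, 222 and 218 CPM in obesity, against 348 CPM in control, a log2 ratio of -0.66. The median log2 ratio was -0.81 over the 59 genes with pseudogenes and -0.72 over the 20 without them. The difference from control was thus of similar size where no pseudogene is named after the gene.

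**Figure D4:**
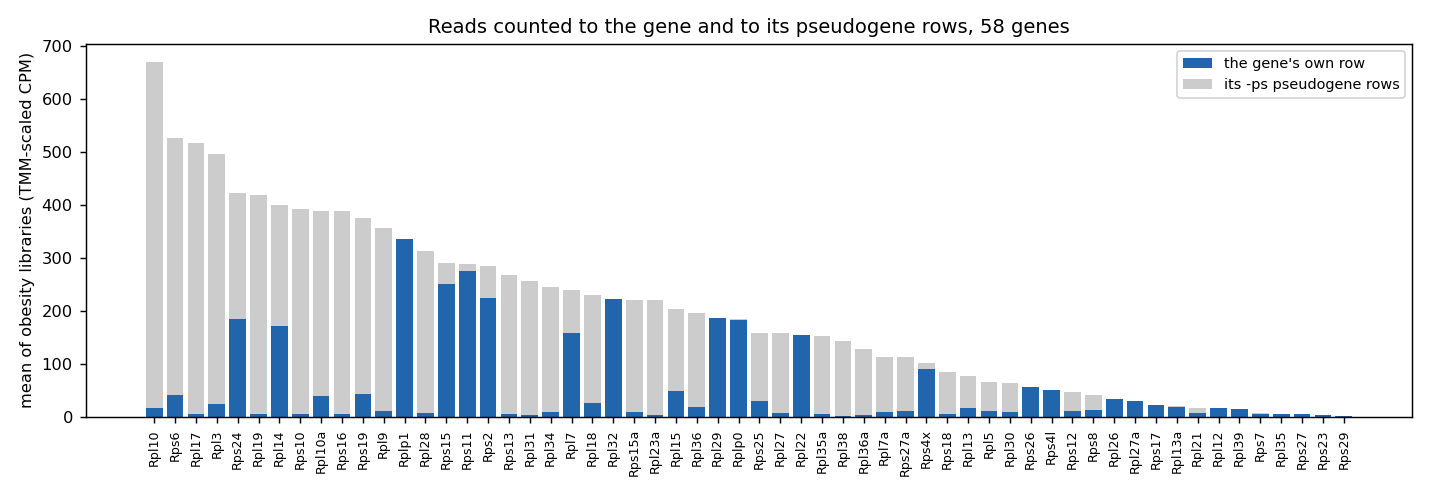
Mean TMM-scaled CPM of the 2 obesity libraries for 58 genes with pseudogenes (x axis), stacked as the gene's own counts (blue) and the counts of its -ps pseudogenes (grey). The grey part exceeds the blue one in most of the tallest bars, such as Rpl10 with 656 own counts and 26242 pseudogene counts, while Rplp1 and Rpl32 are almost all blue.

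The comparison of resveratrol with obesity asked what the compound changes in mice on the high-fat diet. Of the 79 genes, 61 were lower and 18 higher with resveratrol, where 45.1% of all tested genes were lower and 52.8% higher. The median log2 difference was -0.18, against 0.05 over all genes. The spread (standard deviation) of the median ribosomal protein gene within each group, combined for a difference between single libraries, came to 0.22. The median difference compares groups of 2 libraries, so these values are not on the same scale and were not tested against each other. Both resveratrol libraries lay below both obesity libraries in 22 genes, 27.8% of those tested, against 16.7% of all genes, and above both in 2 genes, against 16.9%. By edgeR's quasi-likelihood test 0 ribosomal protein genes and 0% of all genes were called, and 0 ribosomal protein genes had an unadjusted p under 0.05, against 1.92% of all genes higher and 0.428% lower. DESeq2 also called 0 ribosomal protein genes, against 0.763% of all genes higher and 0.0767% lower, and limma-voom called 0 of them and 0% of all genes. Markers of dividing cells and of macrophages were set beside these values. The 5 cycling genes summed to 38.2 and 92.3 CPM in resveratrol, 147 and 152 CPM in obesity, against 36.9 CPM in control, and all 5 lay below both obesity libraries in both resveratrol libraries, with a median log2 difference of -1.18 and 2 genes at an unadjusted p under 0.05. The 8 macrophage genes summed to 424 and 2335 CPM in resveratrol, 2199 and 2202 CPM in obesity, against 176 CPM in control, with 7 of 8 lower in the fit and overlapping sums. In the fit, the 10 adipocyte genes were all lower too, at a median of -0.70. The 8 smooth muscle, 4 B cell and 4 T cell genes were all higher, at medians of 5.59, 2.83 and 0.45. The epididymis, germ cell, skeletal muscle and endothelial lists had genes on both sides. The part of these cell types in the values of the ribosomal protein genes was not tested.

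The direction leaned on single libraries. Without resveratrol library 1, which stands apart, 70 genes were lower and 9 higher, with a median of -0.26. Without resveratrol library 2, 44 were lower and 35 higher, with a median of -0.04, and edgeR's quasi-likelihood test then called Rpl3l higher, at a log2 difference of 4.65 and an adjusted p of 0.00106, where 9.91% of all genes were called higher. Without obesity library 1, 48 were lower and the median was -0.08, and without obesity library 2, 63 were lower and the median was -0.22. Rpl3l was at 98 counts in resveratrol library 1, against 7 counts in both obesity libraries together, a level 25.6 times as high with a counting interval of 11.9 to 65.2. In resveratrol library 2 it had 1 count, a ratio of 0.223 to obesity with an interval of 0.00495 to 1.74. The libraries of the resveratrol group thus lay on opposite sides of obesity for this gene.

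Of the 22 genes with both resveratrol libraries below both obesity libraries, several have been given with their levels. Rps27a had the smallest p of the members, with a log2 difference of -0.73 (SE 0.34), where edgeR's quasi-likelihood test gave an adjusted p of 0.899. Rpl35 differed by -0.66 (SE 0.38), Rpl23a by -0.71 (SE 0.58), Rplp0 by -0.38 (SE 0.29) and Rplp2 by -0.43 (SE 0.22). Rps7, a small subunit protein that also binds Mdm2, was at 2.77 and 2.02 CPM in resveratrol, 4.54 and 3.33 CPM in obesity, against 8.82 CPM in control, a resveratrol difference from obesity of -0.71 (SE 0.50). Rpl37a, a zinc-binding protein of the large subunit, was at 5.68 and 5.17 CPM in resveratrol, 10.6 and 6.52 CPM in obesity, against 8.68 CPM in control, a difference of -0.66 (SE 0.44). Some of these genes were more abundant than others, and none of the differences reached 3 SE. Rpl28, of the large subunit, was higher in both resveratrol libraries, at 13.1 and 9.18 CPM in resveratrol against 7.15 and 8.00 CPM in obesity, a difference of 0.56 (SE 0.37). Most counts of Rps27a, Rpl23a and Rpl28 lie on pseudogenes, and with these added their log2 ratios of resveratrol to obesity were -0.28, -0.02 and 0.03, with overlapping libraries for Rpl23a and Rpl28. Rps26 and Rpl37 had fitted differences of 0.14 each, with overlapping libraries.

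Resveratrol was also set against control, a comparison that shares its libraries with both others and adds no independent evidence. Of the 79 genes, 77 were lower and 2 higher, where 48.5% of all genes were lower and 51.4% higher, and the median log2 difference was -0.95 against 0.05 over all genes. Both resveratrol libraries lay below control in 76 genes, 96.2% of those tested, against 41% of all genes. By edgeR's quasi-likelihood test 0 of them and 0% of all genes were called, with a smallest adjusted p of 0.195. At an unadjusted p under 0.05 that test gave 29 lower genes, 36.7%, against 8.05% of all genes. Without resveratrol library 1 edgeR called 35 lower, against 12.2% of all genes, without resveratrol library 2 it called 18 lower, against 6.19%, and DESeq2 called 21 lower, against 4.12%. With resveratrol and control alone edgeR called 0 ribosomal protein genes and 0% of all genes, and limma-voom called 0, against 0.323% of all genes. The count at an unadjusted p under 0.05 was 4 lower with resveratrol and control alone, against 4.94% of all genes. It was 5 lower without obesity library 1, against 4.55%, and 5 lower without obesity library 2, against 4.71%. The lowest differences were those of Rpl3l at -5.31, Rpl35 at -2.79 (SE 0.45) and Rps16, of the small subunit, at -2.27 (SE 0.45), followed by Rps29 and Rps26 at -2.15 each. The genes nearest to control from below were Rps27l at -0.07, Rpl13a at -0.09 and Rpl24 at -0.23. Rps16 was at 3.41 and 3.85 CPM in resveratrol, 5.22 and 4.76 CPM in obesity, against 17.5 CPM in control. The 2 pseudogenes of Rps16 held 99.0% and 98.9% of its counts in resveratrol, 98.6% and 98.8% in obesity, and 96.8% in control, and with them the log2 ratio of obesity to control was -0.50, against -1.81 for the own counts. The 2 higher genes were Rps18 at 0.24 and Rps12 at 0.05, whose counts lie mostly on pseudogenes, and Rps12 was lower than control when scaled by total counts.

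Genes that serve the ribosome without being part of it were set beside these counts. The mitochondrial ribosomal proteins, which build the separate ribosome of mitochondria, had a median obesity difference from control of 0.25, with 51 higher and 26 lower of 77 tested. Ribosome biogenesis factors had a median of 0.21 with 25 higher and 12 lower, and translation initiation factors 0.11 with 19 higher and 12 lower. Translation elongation factors had a median of 0.80, with 7 higher and 5 lower of 12. Their summed level ran the other way from this median. It was 5841 and 5667 CPM in resveratrol, 6148 and 6035 CPM in obesity, against 8697 CPM in control. The 12 tested RNA polymerase I genes had a median of 0.04, and 16 growth regulators, among them Myc and genes of the mTOR pathway, had 0.32. Scaled by total counts, the median of the elongation factors was 0.67 and the other medians, in the order given, were 0.12, 0.08, -0.01, -0.08 and 0.19, so those of the initiation factors and of RNA polymerase I changed sign. By edgeR's quasi-likelihood test 0 of these genes were called. The cytosolic ribosomal proteins were thus lower than control in a larger share of their genes than any of these lists, which is a description and was not tested.

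Single genes of these lists lay on both sides. Dkc1, the pseudouridine synthase that modifies ribosomal RNA, was at 16.0 and 20.0 CPM in resveratrol, 19.0 and 22.1 CPM in obesity, against 5.54 CPM in control, a log2 obesity difference from control of 1.89 (SE 0.40). Eif2s1, the alpha subunit of the initiation factor that brings the first tRNA, was at 40.0 and 47.2 CPM in resveratrol, 58.1 and 69.0 CPM in obesity, against 26.2 CPM in control, a difference of 1.28 (SE 0.32). Eif4ebp1, the repressor of cap-dependent translation that mTOR inactivates, was at 54.4 and 201 CPM in resveratrol, 132 and 178 CPM in obesity, against 7.46 CPM in control, a difference of 4.37 (SE 1.08). These 3 lay above control in all 4 other libraries. Below control lay Eif3f, a subunit of initiation factor 3, at 204 and 189 CPM in resveratrol, 183 and 187 CPM in obesity, against 426 CPM in control, a difference of -1.20 (SE 0.34). Mrpl37, of the mitochondrial large subunit, was at 57.7 and 59.2 CPM in resveratrol, 64.0 and 61.8 CPM in obesity, against 417 CPM in control, with the lowest difference of its list at -2.73. Tpt1, a protein whose mRNA is a known TOP mRNA, was at 33.5 and 29.1 CPM in resveratrol, 41.4 and 33.8 CPM in obesity, against 87.4 CPM in control, a difference of -1.22 (SE 0.29). The 8 other TOP mRNAs had 4 higher and 4 lower genes and a median of -0.39.

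The 8 genes of the separate list outside the naming pattern were mostly below control too, with 7 lower and 1 higher. Their median was -0.60. Rpsa, a small subunit protein also known as a laminin receptor, was at 98.8 and 121 CPM in resveratrol, 149 and 133 CPM in obesity, against 315 CPM in control, a difference of -1.16 (SE 0.33). Rack1, a small subunit scaffold for signalling proteins, was at 440 and 481 CPM in resveratrol, 549 and 574 CPM in obesity, against 767 CPM in control, a difference of -0.45 (SE 0.45). The higher gene was Rpl7l1, at 67.0 and 66.6 CPM in resveratrol, 69.5 and 80.9 CPM in obesity, against 40.3 CPM in control, a difference of 0.90 (SE 0.29). Like Rps27l it is a gene named for its likeness to a ribosomal protein gene.

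**Figure D5:**
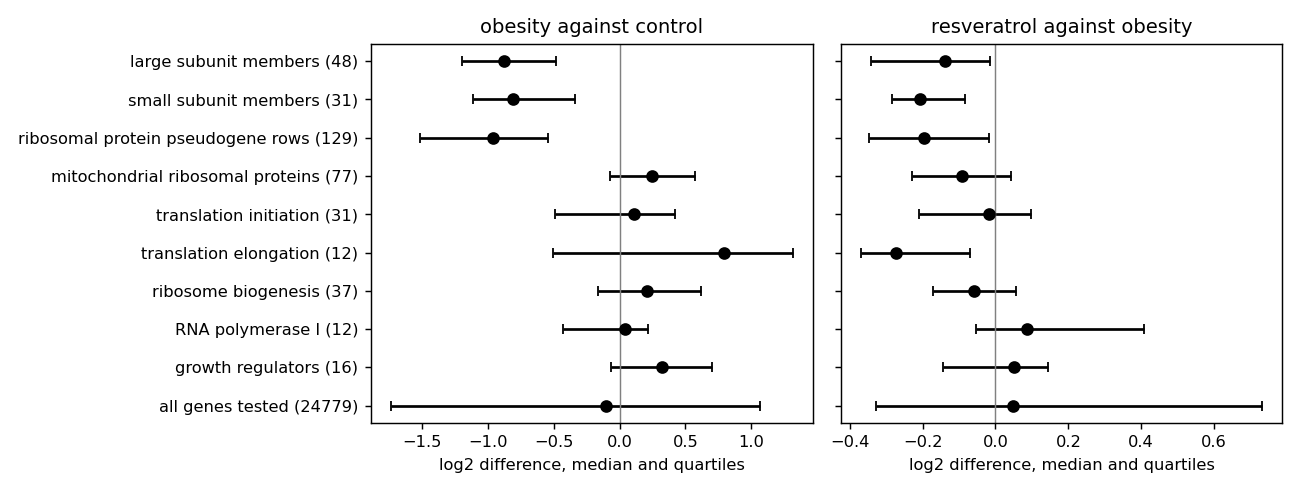
Median (point) and quartiles (line) of the log2 difference over the tested genes of each list, for obesity against control (left) and resveratrol against obesity (right), with the number of tested genes in brackets and separate x axes. Both subunits and their pseudogenes lie near -0.8 to -1.0 on the left, where the mitochondrial ribosomal proteins lie at 0.25, and between -0.3 and 0 on the right.

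With resveratrol against obesity, the other TOP mRNAs stood furthest from 0 among these lists, at a median of -0.32 with 6 lower and 2 higher. The list of genes outside the naming pattern was at -0.29, with 7 lower and 1 higher. The median was -0.09 for the mitochondrial ribosomal proteins, -0.06 for biogenesis factors, -0.02 for initiation factors (0.01 scaled by total counts), 0.09 for RNA polymerase I and 0.05 for the growth regulators. It was -0.27 for the 12 elongation factors, with 9 lower and 3 higher (-0.24 scaled by total counts). Nhp2, a partner of Dkc1, was at 33.3 and 43.2 CPM in resveratrol, 52.9 and 52.6 CPM in obesity, against 58.1 CPM in control, a difference of -0.46 (SE 0.25). The ribosomal protein genes, at -0.18, lay between the initiation and the elongation factors.

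The starts of the genes were read from RefSeq (GRCm38.p6, another build than the GRCm39 of the counts), whose table held 60 of the 82 genes. The longest run of C and T within 30 bases of the start reached 8 bases in 32 of 60 genes, 53.3%, against 26.1% of 69 mitochondrial ribosomal protein genes and 22.8% of all 27025 starts of the table. Such a run was as common among large subunit genes, 52.6%, as among small subunit genes, 54.5%. For 6 genes, 4 of them described by their levels and the other 2 the paralogues Rps27l and Rpl3l, a window of 30 bases is shown in the direction of transcription, with the longest run in capitals.
Rpl35 (chr2:39005117-39005146, minus strand): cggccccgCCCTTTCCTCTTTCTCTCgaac
Rpl4 (chr9:64173361-64173390, plus strand): gtgacaagTCTTTCCTTTTCCTgtgggagc
Rps26 (chr10:128626482-128626511, minus strand): ccgccggaTCCTCTTTCgagtcttggctcc
Rps6 (chr4:86857347-86857376, minus strand): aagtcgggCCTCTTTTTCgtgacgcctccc
Rps27l (chr9:66946056-66946085, plus strand): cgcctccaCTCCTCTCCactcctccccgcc
Rpl3l (chr17:24727827-24727856, plus strand): tcatttgaCCTCTggtgcctggtggggagg
The run was 18 bases in Rpl35 and 5 in Rpl3l. In Rpl4 and Rps27l it began at -18 and -22 bases from the annotated start and ended upstream of it, outside the annotated messenger RNA. Some genes described above but not shown had short runs, such as 4 bases in Rpl41 and in Rpl10. The letters CCGGAAG, searched on both strands in the 300 bases around each start, were present in 38.3% of the ribosomal protein genes, 36.2% of the mitochondrial ones and 9.12% of all starts. TATAAA, searched in the same way, was present in 10% of the ribosomal protein genes, 5.8% of the mitochondrial ones and 14.2% of all starts. These matches describe the letters of the windows, and they say nothing about use of the start in these libraries.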

How the data were processed

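Per the labels' protocols, a kit for lipid tissue gave the RNA, libraries were poly-A selected and stranded, and reads were paired, 150 bases each. The deposited values are raw whole-number counts per Ensembl gene, which the authors made with featureCounts on GRCm39 after FastQC, per the submitters' processing notes. Which aligner, annotation and strand setting were used, and how reads with several matches were treated, is not given in the sources used here. Symbols were found for 65.7% of 78334 identifiers. Total counts ranged from 19540961 to 27026597, so 3 counts equal 0.105 to 0.157 CPM, and counting error is all that intervals and floors cover. The counts of both obesity and both resveratrol libraries differed beyond sampling noise.

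The analysis used R 4.3.3 and edgeR 4.0.16 (filterByExpr at 10 counts and a total of 15, TMM, robust quasi-likelihood fit of all 5 libraries, Benjamini-Hochberg at 0.05), which tested 24779 genes at a biological coefficient of variation of 62.2%. DESeq2 1.42.0 and limma-voom (limma 3.58.1), other scalings and filters, other gene sets and left-out libraries were alternatives. The fit was tested on simulated data. The SE is the log2 difference divided by the square root of F. With 2 libraries against 2, the smallest two-sided exact permutation p is 0.333, so sums were not tested.

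Shared sequence was counted in windows of 100 bases of GENCODE M21 transcripts, and sequences were compared with Biopython 1.88. Levels per kilobase use the same transcripts. Python 3.11.15 and matplotlib 3.10.9 made the figures.

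The members and the gene lists were chosen with earlier results of these data known. The text names, per comparison, the genes with the largest and smallest differences among members averaging at least 1 CPM, the stalk genes, the genes ending in l, the X-linked genes, genes with roles outside the ribosome, and genes of the lists with the smallest p, of which a selection is given. Rps3, Rpl8 and Rpl41 were added for their abundance, Rpl38 and Rpl31 for their copies, and Mrpl37 after its value was seen. Some genes are not reported here.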

Additional observations from a re-analysis of the deposited data

How the results depend on the processing

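Under every alternative run, the median ribosomal protein gene lay below 0 in all 3 comparisons. For obesity against control it was -0.82, moved to -0.95 with total-count library sizes and to -1.02 with a stricter filter of 50 counts in 2 libraries, and ranged from -0.89 to -0.73 with libraries left out. With libraries left out it ranged from -0.26 to -0.04 for resveratrol against obesity and from -1.01 to -0.91 for resveratrol against control.

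Calls differed between settings. No filter on low counts gave 3 and 5 called ribosomal protein genes in obesity and in resveratrol against control, and 2575, 1671 and, for resveratrol against obesity, 25 over all genes. DESeq2 gave 17 and 21 ribosomal protein genes against control, and 4431, 3031 and 208 genes in all; limma-voom called 80 of all genes in resveratrol against control. The obesity and control libraries alone gave 35 ribosomal protein genes and 9269 genes, and the resveratrol and control libraries alone gave 0 and 0. Leaving out single libraries gave 0 to 34 ribosomal protein genes and 0 to 9227 genes for obesity against control, 0 to 1 and 0 to 4758 for resveratrol against obesity, and 0 to 35 and 0 to 7469 for resveratrol against control. Leaving out the control library and resveratrol library 1 together, added after seeing the data, gave 66 genes for resveratrol against obesity. The cause of these shifts was not tested.

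Summed levels, in the order resveratrol 1 and 2, obesity 1 and 2, control, were 15301, 13616, 16428, 15223 and 27480 CPM with pseudogenes, 7179, 6649, 7959, 7332 and 12911 CPM with ribosomal protein genes of other names, and 5894, 5467, 6551, 5948 and 10385 CPM without Rpl4. The control sum was 12440 CPM by total counts, 12061 CPM by median-ratio size factors and 11250 CPM without genes ending in l. The large to small ratios were 1.70, 1.43, 1.45, 1.44 and 1.79 with pseudogenes, 1.17, 1.05, 1.03, 1.05 and 1.26 with the genes of other names, and 1.16, 1.11, 1.07, 1.11 and 1.28 without Rpl4; the control ratio was 1.55 without genes ending in l. The control library was highest throughout.

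Resveratrol and obesity libraries share only replicate numbers: their differences between replicates 1 and 2 correlated at 0.30 over all genes and -0.24 over the ribosomal protein genes. A fit with the replicate block called 0 genes in each comparison, had 9 and 17 lower ribosomal protein genes at an unadjusted p under 0.05 in obesity and in resveratrol against control where the fit without it had 23 and 29, with medians of -0.73, -0.15 and -0.94 for obesity against control, resveratrol against obesity and resveratrol against control. Depth limits the lowest genes: in obesity library 1 a gene at 3 counts is at 0.157 CPM.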
